A study of Mus musculus with 23 samples.

Results

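Pentoxifylline (PTX) given by the intraperitoneal (IP) route was examined for its main effect on gene expression in melanoma tumors, as the difference between the 4 tumors of mice that received PTX and the 4 tumors of mice that did not. These 8 tumors are all the IP tumors among the 23 tumors of the series, and they were chosen by route and treatment labels alone. The PTX-treated tumors were the 2 of PTX_IP (replicates 3 and 4) and the 2 of MIX_IP (replicates 7 and 8), and the others were the 2 of CONTROL_IP (replicates 1 and 2) and the 2 of NCTD_IP (replicates 5 and 6). Since norcantharidin (NCTD) was present in 2 tumors of each side, it entered the comparison as a covariate.

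All tumors grew under the skin of DBA/2J mice 6 to 8 weeks old after injection of B16-F1 cells, a mouse melanoma line of C57BL/6 origin, so that host and tumor differ in strain in every group, controls included. CONTROL_IP mice received saline, PTX_IP mice PTX at 60 mg/kg, NCTD_IP mice NCTD at 3 mg/kg, and MIX_IP mice both drugs at those doses. RNA of the whole tumor was sequenced from the 3′ end of messenger RNA, and the deposited values are read counts per gene. No replicate number is used for more than 1 tumor and no label ties a tumor to a particular mouse. The p-values therefore rest on differences between tumors. Those of the main effect measure the spread left by a model that adds PTX and NCTD. That spread holds the differences between tumors of the same label and also any interaction of the drugs.

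PTX is a methylxanthine that inhibits phosphodiesterases, the enzymes that break down cyclic AMP and cyclic GMP. Cyclic AMP activates protein kinase A and, through it, the transcription factor CREB, and in pigment cells the same pathway drives Mitf, the master regulator of melanocyte identity. In immune cells PTX is best known for lowering the production of tumor necrosis factor. NCTD is a demethylated cantharidin and inhibits serine/threonine phosphatases.

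Total counts ranged from 3533893 to 6702374 in the PTX-treated tumors and from 3590199 to 6482900 in the others, so that depth did not separate the arms, and 3 counts, the floor used here, correspond to between 0.448 and 0.849 CPM (counts scaled to a common library size) across the 8 tumors. Fold changes are log2 values of PTX-treated minus other tumors, and the value after ± is the standard error unless SD is written. The labelled tissue carried its defining genes: the summed level of 8 melanoma markers (Pmel, Tyr, Tyrp1, Dct, Mlana, Slc45a2, Sox10 and Mitf) lay between 28380 and 38260 CPM with PTX and between 29431 and 35385 CPM without it, and no marker was at 0. PTX_IP replicate 4 stood furthest from the others, with a median Euclidean distance of 85.9 in log2 CPM against 68.7 to 75.9 for the other 7 tumors. Xist, the RNA of the inactive X chromosome, had counts only in CONTROL_IP replicate 2 (8.32 CPM), where the Y-linked Ddx3y was at 0.454 CPM, below the 3.32 to 14.2 CPM of the other 7 tumors. Of the 37 genes named by rule with an unadjusted p below 0.05 over 8 tumors, 3 (Kit, Ssrp1 and Sesn1) were at or above it without PTX_IP replicate 4, and 4 (Ccn2, Phlda3, Ssrp1 and Sesn1) without CONTROL_IP replicate 2. Of the 41 list medians described below, 17 changed sign without PTX_IP replicate 4 and 10 without CONTROL_IP replicate 2.

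No gene passed correction for multiple testing in the comparison of PTX-treated with other tumors. Of 12424 genes tested with edgeR's quasi-likelihood test, 0 reached a Benjamini-Hochberg adjusted p below 0.05, and 368 (2.96%) had an unadjusted p below 0.05, 194 of them higher with PTX (1.56%) and 174 lower (1.40%). Uniformly spread p-values would put about 621 genes below 0.05, more than were found. DESeq2 on the same model called 1 gene, Gm11518, with 323 genes at an unadjusted p below 0.05, and limma-trend called 0, with 373. Levels of the 4 PTX-treated tumors lay all above the 4 others for 123 genes (0.990%) and all below them for 138 (1.11%), 261 in all (2.10%). The median log2 fold change over all tested genes was 0.00 and the median standard error 0.23. PTX accounted for 12.7% of the squared distance between the tumors after NCTD, close to the 11.8% of NCTD after PTX, and a one-sided exact permutation of PTX within the NCTD strata gave p = 0.611 over 36 arrangements, of which the smallest possible p is 0.0556. Leaving out 1 tumor moved the number of genes at an unadjusted p below 0.05 to 933 without PTX_IP replicate 3, to 228 without CONTROL_IP replicate 2 and to 245 without MIX_IP replicate 7.

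The gene of smallest p was Gm11518, a processed pseudogene. Its level was 194 and 257 CPM in CONTROL_IP, 128 and 489 CPM in NCTD_IP, 35.2 and 45.8 CPM in PTX_IP, and 39.0 and 31.3 CPM in MIX_IP. The arms did not overlap, and the lowest tumor without PTX was above the highest PTX-treated tumor both with and without NCTD. The log2 fold change was -2.80 ± 0.36, with means of 37.8 CPM ± 6.19 (SD, n = 4) with PTX and 267 CPM ± 157 (SD, n = 4) without it. The adjusted p in edgeR was 0.111, in DESeq2 it was 1.76e-14, and in edgeR it passed the threshold without NCTD_IP replicate 5 (0.0115), without NCTD_IP replicate 6 (0.0109) and without the NCTD covariate (0.0372).

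Gm11518 lies on the minus strand of GRCm39 at chr11:93928044-93928454, inside the plus-strand gene Spag9 and in no exon of it. Its 411 bases are identical to the coding transcript of Rpl27, a protein of the large ribosomal subunit, and 6 other pseudogenes in the annotation match it at 95% identity or more over at least 80% of its length. The last 150 bases (262 to 411, chr11:93928044-93928193, minus strand) are shown because nothing in them can assign a read to the pseudogene or to Rpl27. Capitals mark bases that differ from the parent transcript, of which Gm11518 has 0 and the pseudogene Rps18-ps3, described below, has 2 in its last 150 bases (307 to 456, chr8:107989425-107989574, minus strand).
Gm11518: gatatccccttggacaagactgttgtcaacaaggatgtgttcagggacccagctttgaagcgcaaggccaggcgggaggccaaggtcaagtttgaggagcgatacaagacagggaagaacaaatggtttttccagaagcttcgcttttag
Rps18-ps3: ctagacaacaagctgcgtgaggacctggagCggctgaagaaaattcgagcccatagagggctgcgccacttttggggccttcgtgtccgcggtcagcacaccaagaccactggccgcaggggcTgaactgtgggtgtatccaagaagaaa

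Rpl27 itself did not show the difference. Its level ranged from 1031 to 1340 CPM with PTX and from 969 to 1147 CPM without it, with a log2 fold change of 0.18 ± 0.14 (unadjusted p = 0.222 in edgeR). Of the reads counted on either gene, 2.701% to 3.307% were on Gm11518 in the PTX-treated tumors and 10.1% to 32.5% in the others. Their summed level overlapped between the arms, at 1211 CPM ± 135 (SD, n = 4) with PTX and 1305 CPM ± 144 (SD, n = 4) without. In the 15 intratumoral (IT) tumors Gm11518 was below 50 CPM in 3 of 7 PTX-treated and 5 of 8 other tumors and above 300 CPM in 3 of 7 and 3 of 8. The low and the high level thus both occurred with and without PTX there. How reads that fit both genes were counted is not given in the sources used here.

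**Figure D1:**
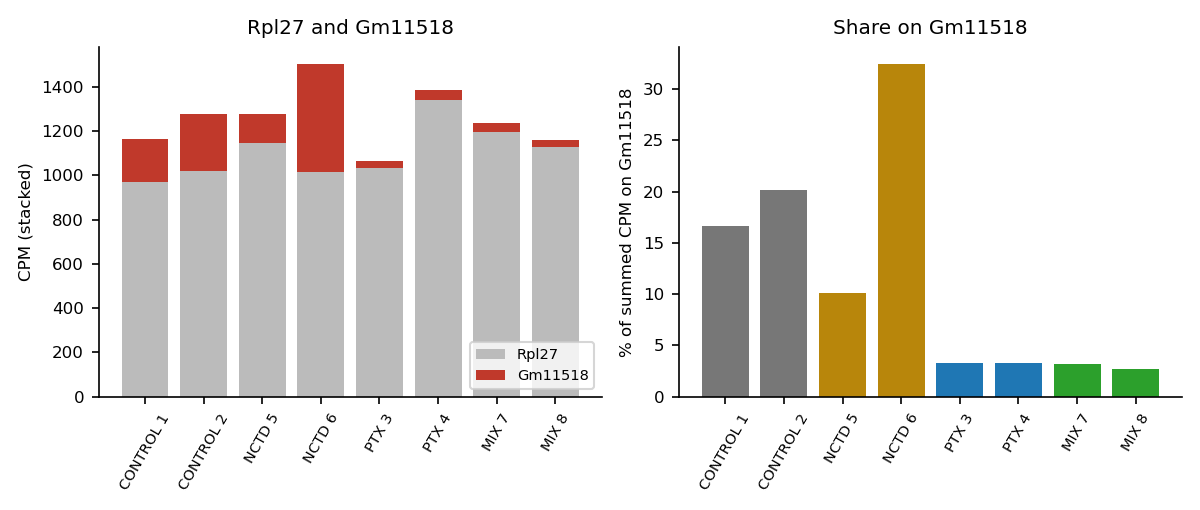
Levels of Gm11518 and its parent Rpl27 in the 8 IP tumors. The left panel stacks both in CPM for each tumor and the right panel gives the percentage of their summed CPM that was on Gm11518, at 2.701% to 3.307% in the PTX and MIX tumors and 10.1% to 32.5% in the CONTROL and NCTD tumors.

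Among protein-coding genes, those with the smallest p that were lower with PTX included Lipt2, Mzf1, Sting1, Tnfrsf4 and Atp8b4. These genes and the higher ones described below were picked by p in these same tumors. Arms that do not overlap follow in part from that choice and add no separate evidence. Lipt2, which attaches octanoyl groups in the making of lipoic acid, was at 5.28 and 7.26 CPM in CONTROL_IP, 7.65 and 6.97 CPM in NCTD_IP, 1.35 and 3.10 CPM in PTX_IP and 1.86 and 2.27 CPM in MIX_IP. The arms did not overlap, and the log2 fold change was -1.66 ± 0.39 (unadjusted p = 0.00137 in edgeR). Mzf1, a myeloid zinc finger transcription factor, was at 3.52 and 3.02 CPM in CONTROL_IP, 3.402 and 5.29 CPM in NCTD_IP, 1.05 and 0.664 CPM in PTX_IP and 0.796 and 1.14 CPM in MIX_IP. Its log2 fold change was -2.002 ± 0.47, and its PTX-treated tumors were close to the floor of 3 counts.

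Sting1, the adaptor that relays the sensing of cytosolic DNA to interferon, was at 47.9 and 57.8 CPM in CONTROL_IP, 51.0 and 49.8 CPM in NCTD_IP, 38.8 and 29.2 CPM in PTX_IP and 37.1 and 35.3 CPM in MIX_IP, without overlap, with a log2 fold change of -0.56 ± 0.15 (unadjusted p = 0.00405 in edgeR). Tnfrsf4, which encodes the costimulatory receptor OX40 of T cells, was at 1.96 to 6.96 CPM without PTX and 0.569 to 1.35 CPM with it, a log2 fold change of -2.05 ± 0.55. Its PTX-treated tumors held 2 to 9 counts, with MIX_IP replicate 8 below the floor. Atp8b4, a phospholipid flippase, ranged from 8.50 to 13.3 CPM without PTX and from 1.77 to 6.15 CPM with it, a log2 fold change of -1.54 ± 0.39.

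The other 5 protein-coding genes of lowest p on this side had log2 fold changes between -0.54 and -1.57. Thrsp, a regulator of fatty acid synthesis, had -1.57 ± 0.46, Gpr158, a class C G protein-coupled receptor, -0.83 ± 0.25, Arsg, a lysosomal sulfatase, -0.58 ± 0.17, and Pigbos1, a mitochondrial microprotein, -0.55 ± 0.16. In these 4 genes the arms did not overlap. Cltc, the clathrin heavy chain, had -0.54 ± 0.16 and its arms overlapped, since the MIX_IP tumors at 801 and 920 CPM lay within the range without PTX of 719 to 1060 CPM. The long noncoding RNAs Lncbate10 (-1.72 ± 0.47) and D830035M03Rik (-2.15 ± 0.64) were also lower in all 4 PTX-treated tumors, and 1 or more of these tumors were below the floor for each. Lipt2, Mzf1, Tnfrsf4, Thrsp and both of these RNAs passed the filter on low counts through the tumors without PTX. The PTX-treated tumors would not have carried them past it, so for them the lower level with PTX is not independent of the filter.

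The gene of smallest p that was higher with PTX was Sqstm1, which encodes p62, the receptor that carries ubiquitinated cargo into autophagy and that binds KEAP1, the repressor of NRF2. It was at 309 and 342 CPM in CONTROL_IP, 353 and 378 CPM in NCTD_IP, 772 and 333 CPM in PTX_IP and 800 and 831 CPM in MIX_IP. Of the 4 PTX-treated tumors 3 lay at about the same high level, while PTX_IP replicate 4 lay among the tumors without PTX. The log2 fold change was 0.96 ± 0.23 (unadjusted p = 0.00144 in edgeR). It ranged from 0.73 to 1.19 when any 1 tumor was left out, the highest without PTX_IP replicate 4, the tumor that lay apart. In the IT tumors the PTX main effect on Sqstm1 was 0.43 ± 0.24 (unadjusted p = 0.0869 in edgeR).

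Mafg, a small MAF protein that pairs with NRF2 on DNA, was at 85.9 and 79.4 CPM in CONTROL_IP, 64.6 and 80.1 CPM in NCTD_IP, 107 and 107 CPM in PTX_IP and 116 and 108 CPM in MIX_IP. The arms did not overlap and the tumors within each group differed little, with a log2 fold change of 0.50 ± 0.14 (unadjusted p = 0.00407 in edgeR). Paf1, a subunit of the complex that travels with elongating RNA polymerase II, had a log2 fold change of 0.55 ± 0.15, Aatf, a nucleolar factor of ribosome maturation, 0.63 ± 0.18, and Cebpz, a nucleolar protein of ribosome assembly, 0.56 ± 0.16, each without overlap of the arms. R3hcc1 had 1.07 ± 0.29 and Psmc3ip, a partner of the recombinase DMC1, 1.30 ± 0.36, also without overlap.

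For 3 of the 10 higher genes besides Sqstm1 the arms overlapped. Cdk9, the kinase of P-TEFb that releases paused RNA polymerase II, was at 26.8 and 28.1 CPM in CONTROL_IP, 20.98 and 43.8 CPM in NCTD_IP, 92.8 and 71.3 CPM in PTX_IP and 29.2 and 80.2 CPM in MIX_IP, with a log2 fold change of 1.17 ± 0.33. MIX_IP replicate 7 was at the level of the tumors without PTX. Myl9, a regulatory light chain of myosin, had 1.03 ± 0.28 and Mtbp, a factor of DNA replication origins, 0.83 ± 0.24. In each a single PTX-treated tumor lay within the range without PTX, MIX_IP replicate 8 at 12.5 CPM for Myl9 and PTX_IP replicate 3 at 13.2 CPM for Mtbp. Among the genes named, Mtbp, Psmc3ip, Cebpz, Pigbos1, Arsg, Ccn2, D830035M03Rik, Ddit3, Braf and Erbb2 are examples that overlap a gene on the other strand and Mafg overlaps Sirt7 on its own strand. The strand setting of the counting is not given, so reads from the overlapping stretch may belong to the partner. The overlaps are of whole gene spans, introns included, and whether exons overlap was not checked.

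**Figure D2:**
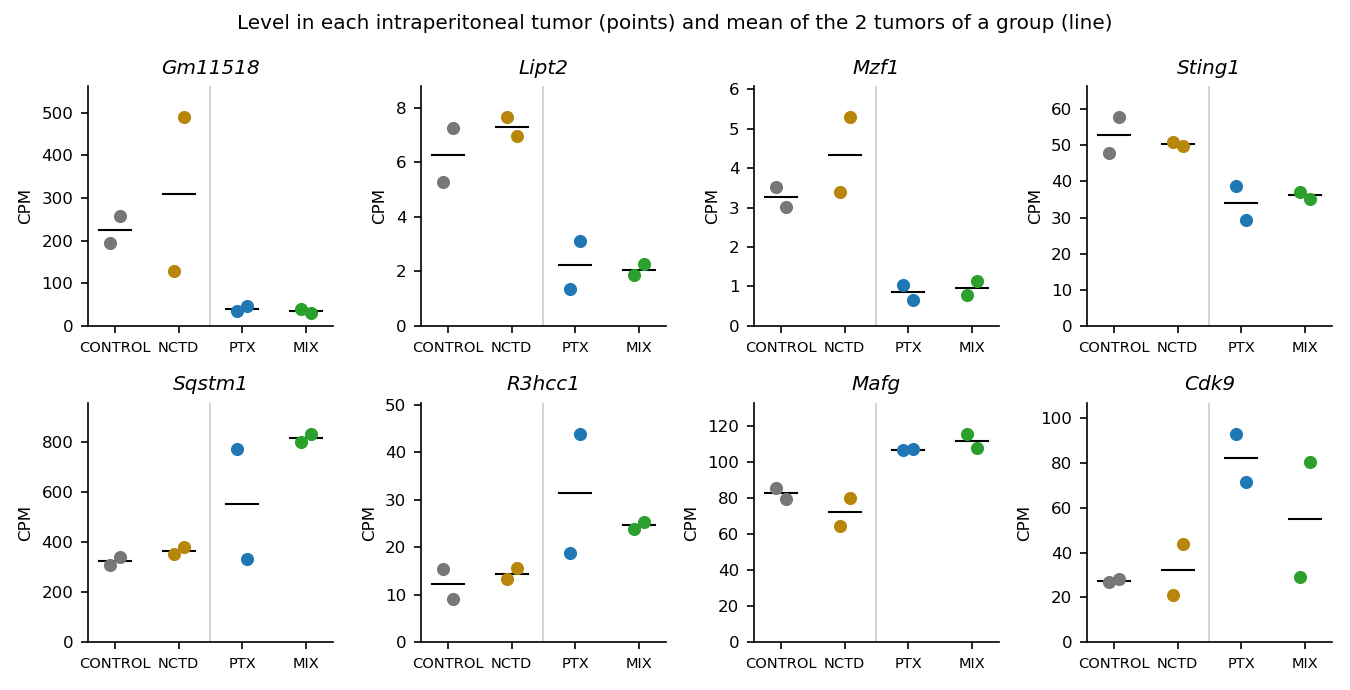
CPM of 8 genes in each IP tumor, with both tumors of a group as points and their mean as a line; groups without PTX stand left of the grey line. Gm11518, Lipt2, Mzf1 and Sting1 lie lower in all PTX and MIX tumors, R3hcc1 and Mafg higher, and Sqstm1 and Cdk9 have 1 PTX-treated tumor each at the level of tumors without PTX.

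The pseudogenes as a class leaned to the higher side by number of genes. Their share of all counts overlapped between the arms, at 4.90% to 7.00% with PTX and 5.26% to 6.91% without it. Near-identical copies of a parent among them are not independent. Of 568 tested, 24 were higher and 3 lower at an unadjusted p below 0.05 (4.75%, against 2.96% of all genes), with a median log2 fold change of 0.11, and of 11120 protein-coding genes 165 were higher and 154 lower. Rps18-ps3, the processed pseudogene whose end is printed above, was at 29.9 and 12.1 CPM in CONTROL_IP, 26.9 and 12.5 CPM in NCTD_IP, 37.0 and 39.0 CPM in PTX_IP and 63.9 and 109 CPM in MIX_IP, a log2 fold change of 1.49 ± 0.37. It is 99.3% identical to Rps18, a protein of the small ribosomal subunit, whose own log2 fold change was -0.10 ± 0.20. Gm9892 had 0.63 ± 0.16 and its closest transcript, Eif2s2, a subunit of the initiation factor that binds the initiator tRNA, lay on the same side at 0.48 ± 0.17. Rpl17-ps10 had 0.73 ± 0.18, and Rpl17, 99.3% identical to it, -0.17 ± 0.27.

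The direct targets of PTX are phosphodiesterases, and it also blocks adenosine receptors. Of 22 such genes 13 passed the filter on low counts and 0 had an unadjusted p below 0.05, with a median log2 fold change of -0.17. Pde4b, the cyclic AMP phosphodiesterase that in many cells is itself induced by cyclic AMP, was at 34.9 to 53.3 CPM with PTX and 36.5 to 51.9 CPM without it, a log2 fold change of -0.04 ± 0.16. Pde7a had 0.15 ± 0.16, Pde4a 0.00 ± 0.32, Pde4d -0.29 ± 0.26, Pde8a -0.28 ± 0.23, Pde3b -0.70 ± 0.63 and the adenosine receptor gene Adora2b -0.17 ± 0.59. The arms overlapped for all 13 genes.

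Downstream of cyclic AMP, 21 of 26 genes of adenylyl cyclases, protein kinase A and CREB cofactors were tested, and 1 had an unadjusted p below 0.05. It was Crtc2, a coactivator of CREB, with a log2 fold change of 0.82 ± 0.33 and levels of 8.64 to 15.4 CPM with PTX and 3.85 to 9.68 CPM without it, which overlapped. Of 21 tested CREB-driven and immediate early genes 0 had an unadjusted p below 0.05 and 11 lay above 0, among them Nr4a1 at 0.10 ± 0.15 and Fos at 0.11 ± 0.28. The binding motif of CREB, TGACGTCA, which reads the same on both strands, was in 2.03% of the 27025 RefSeq promoters of the GRCm38.p6 table, and in 0 of the 7 promoters found for the 10 higher and 0 of the 9 found for the 10 lower protein-coding genes. The shorter TGACG, which is contained in it and was searched on both strands, was in 23% of all promoters, in 2 of the 7 (28.6%) and in 0 of the 9, and with so few promoters nothing is read from these counts.

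Inflammatory cytokine genes were often too low to test, with 10 of 20 passing the filter. Tnf was at 6.90 and 1.11 CPM in PTX_IP, 10.3 and 7.68 CPM in MIX_IP, 4.30 and 4.69 CPM in CONTROL_IP and 2.55 and 5.77 CPM in NCTD_IP. Its lowest and its highest level were thus both in PTX-treated tumors, and its log2 fold change was 0.48 ± 0.53. Of 23 tested NF-kappa B subunits and targets 0 had an unadjusted p below 0.05, with 14 below 0 and a median of -0.08.

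Genes of the oxidative stress response were the list with most members at an unadjusted p below 0.05, 6 of 24, against 2.96% of all genes, with 3 on each side of 0. Sqstm1 and Gsta4 were named by the rule and the other 4 after their values were seen. The list was chosen with earlier results of these data known, so its count and rank are not independent of these data. Slc7a11, the cystine importer that feeds glutathione synthesis, was at 11.5 and 3.99 CPM in PTX_IP, 12.7 and 4.83 CPM in MIX_IP, 4.50 and 1.81 CPM in CONTROL_IP and 3.97 and 4.57 CPM in NCTD_IP, a log2 fold change of 1.19 ± 0.47. PTX_IP replicate 3 and MIX_IP replicate 7 carried its high values. Srxn1, which repairs oxidised peroxiredoxins, was highest in the same 2 tumors at 22.8 and 32.9 CPM, against 11.5 to 20.8 CPM in the other 6, with a log2 fold change of 0.63 ± 0.25.

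On the lower side of this list stood Hmox1, the heme-degrading oxygenase, at -1.14 ± 0.49, Txnip, the inhibitor of thioredoxin, at -0.73 ± 0.27, and Gsta4, a glutathione transferase for lipid aldehydes, at -0.72 ± 0.25. Hmox1 was at 1.33 to 3.41 CPM with PTX and 2.74 to 6.73 CPM without it. Nqo1, a canonical NRF2 target, had 0.34 ± 0.50, and Nfe2l2, the gene of NRF2 itself, had -0.04 ± 0.20. The median of the list was 0.07, with 0.11 for PTX_IP against CONTROL_IP and -0.20 for MIX_IP against NCTD_IP.

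The unfolded protein and integrated stress response was the pathway list with the highest median, 0.31, with 16 of 19 tested genes above 0, against 6251 of 12424 over all genes. Its median was 0.24 for PTX_IP against CONTROL_IP and 0.23 for MIX_IP against NCTD_IP, and 0.15 to 0.34 when any 1 tumor was left out, the lowest without MIX_IP replicate 7. The summed level of the list overlapped between the arms, at 2824 to 3217 CPM with PTX and 2549 to 3199 CPM without it. The SD left in the mean log2 level of the list after PTX and NCTD was 0.14. Genes of a list are not independent replicates. A single member had an unadjusted p below 0.05, Ddit3, which encodes the stress factor CHOP. Ddit3 was at 94.3 and 46.3 CPM in PTX_IP, 89.1 and 43.2 CPM in MIX_IP, 35.98 and 42.7 CPM in CONTROL_IP and 44.5 and 39.9 CPM in NCTD_IP, a log2 fold change of 0.75 ± 0.26 (unadjusted p = 0.0150 in edgeR). Its high values were again in PTX_IP replicate 3 and MIX_IP replicate 7, and the other PTX-treated tumors lay within or just above the range without PTX of 35.98 to 44.5 CPM.

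Atf4, the transcription factor at the centre of this response, had a log2 fold change of 0.31 ± 0.14 and Phgdh, the first enzyme of serine synthesis, 0.47 ± 0.23. In the IT tumors the PTX main effect was -0.41 ± 0.14 for Atf4 (unadjusted p = 0.0112 in edgeR) and -0.41 ± 0.30 for Ddit3. The chaperone genes of the endoplasmic reticulum stayed near 0, Hspa5 at 0.00 ± 0.14 and Hsp90b1 at -0.03 ± 0.15. Among heat shock genes 12 of 14 lay above 0 with a median of 0.11, and Hspb1 was the member with an unadjusted p below 0.05, at 0.77 ± 0.27. Of 22 tested genes of transcription elongation, Cdk9 and Ssrp1, a subunit of the histone chaperone FACT (0.37 ± 0.15), were higher and Ell, an elongation factor (-0.39 ± 0.17), was lower at an unadjusted p below 0.05, 3 of 22 against 2.96% of all genes. Cdk9 had been named earlier from PTX_IP against CONTROL_IP, and the list was chosen with earlier results known. This count is therefore not independent of these data. Ssrp1 had 0.26 without PTX_IP replicate 4, with an unadjusted p of 0.123 in edgeR.

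The pigment cell programme showed no common shift. Of 20 tested melanocyte and pigment genes 14 lay below 0, with a median of -0.05. Kit, the receptor of stem cell factor, had a log2 fold change of 0.62 ± 0.24 (unadjusted p = 0.0283 in edgeR), and its arms were separate by a narrow margin, 11.8 to 20.2 CPM with PTX and 6.80 to 11.8 CPM without it. Kit was highest in PTX_IP replicate 4, without which it had 0.46 with an unadjusted p of 0.117 in edgeR. The pigment enzymes were close to 0, with Tyr at -0.14 ± 0.18, Tyrp1 at -0.07 ± 0.17 and Dct at 0.09 ± 0.14.

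Mitf was at 992 and 614 CPM in CONTROL_IP, 465 and 586 CPM in PTX_IP, 468 and 523 CPM in NCTD_IP and 687 and 872 CPM in MIX_IP. It was lower with PTX in the absence of NCTD (-0.61 ± 0.26) and higher in its presence (0.65 ± 0.26), and these differences cancelled in the main effect of 0.02 ± 0.26. The interaction was 1.27 with an unadjusted p of 0.0063 and an adjusted p of 0.778 in edgeR. In the IT tumors, where 0 genes passed adjustment in edgeR, the PTX main effect on Mitf was -0.41 ± 0.13 (unadjusted p = 0.00678). The transcripts of the signalling proteins studied beside Mitf had IP main effects of 0.24 ± 0.45 for Erbb2, -0.03 ± 0.26 for Braf, -0.03 ± 0.13 for Pik3ca, -0.28 ± 0.26 for Akt1 and -0.02 ± 0.20 for Mtor. The lists of the ERBB, RAS and RAF pathway and of the PI3K, AKT and mTOR pathway held 0 genes at an unadjusted p below 0.05 among 20 and 23 tested.

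The remaining pathway lists had medians between -0.20 and 0.18. Among 18 tested glycolysis genes, Hk2, the inducible hexokinase, was higher at 0.51 ± 0.15 and was the only one with an unadjusted p below 0.05. Cell cycle genes lay above 0 in 23 of 30 cases with a median of 0.11, which was -0.12 for PTX_IP against CONTROL_IP and 0.35 for MIX_IP against NCTD_IP. Transcripts of the mitochondrial genome lay below 0 in 12 of 13 cases with a median of -0.20, and here the same contrasts gave -0.55 and 0.25. Among collagens and fibroblast matrix genes Ccn2 had an unadjusted p below 0.05, at 0.82 ± 0.29, among p53 targets Phlda3 (0.62 ± 0.23) and Sesn1 (-0.58 ± 0.25) did, and among 8 tested nuclear long noncoding RNAs Snhg12 did, at 0.55 ± 0.16 and without overlap of the arms. Lists with 0 such genes were those of oxidative phosphorylation encoded in the nucleus (75 tested), hypoxia and angiogenesis (22), interferon-stimulated genes (33), presentation by MHC class I (16) and class II (9), the circadian clock (13), and lysosome and autophagy (26).

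**Figure D3:**
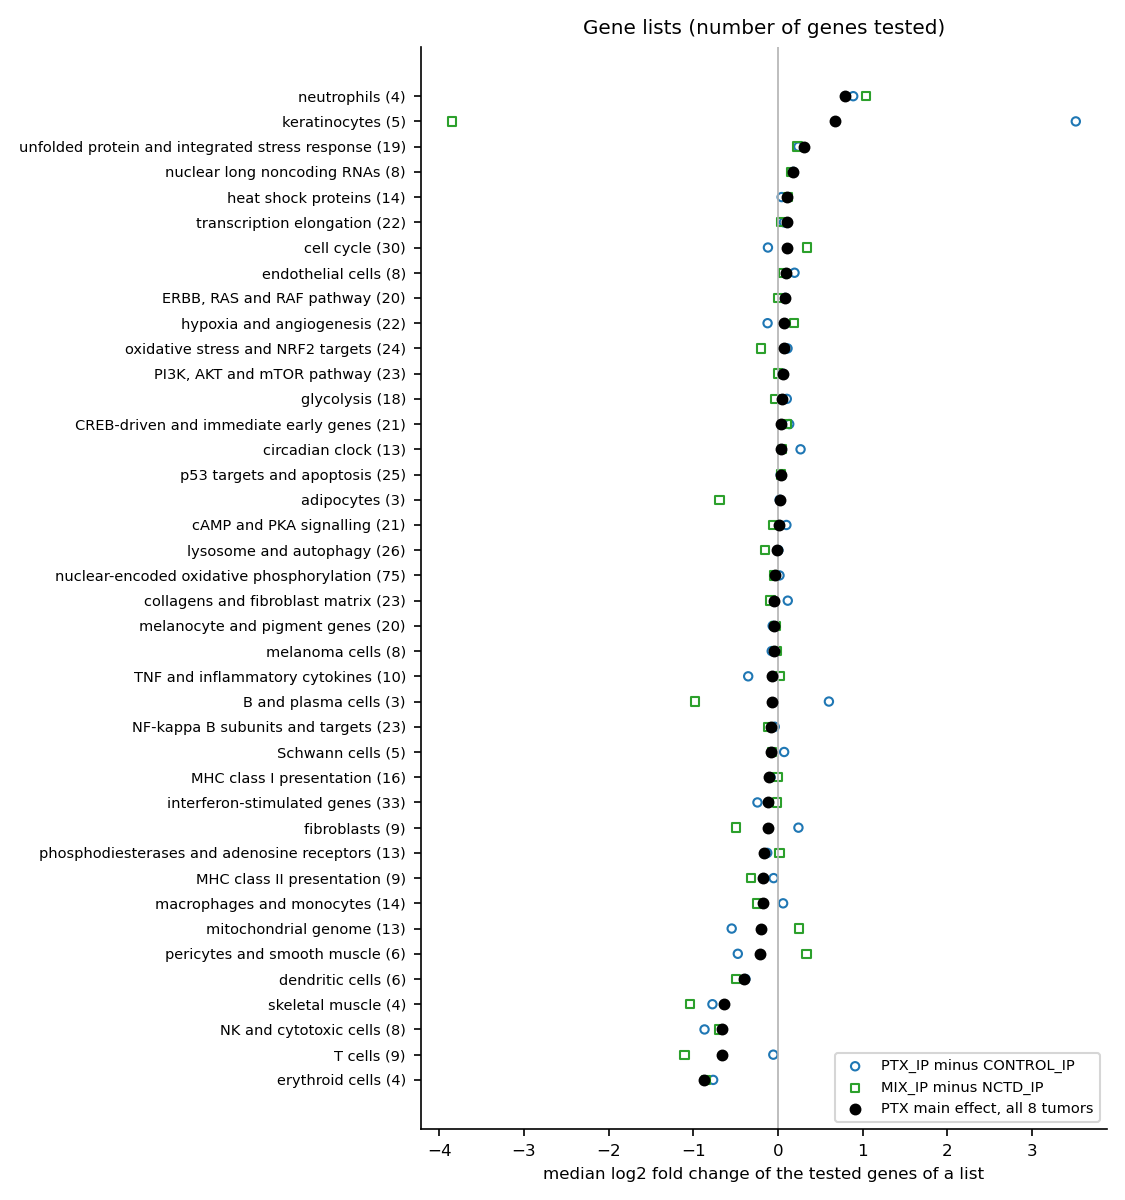
Median log2 fold change of PTX over the tested genes of each list, with their number in brackets. Black points give the main effect over 8 tumors, open circles PTX_IP minus CONTROL_IP and open squares MIX_IP minus NCTD_IP; neutrophil markers and the stress response lie right of 0 in all 3, NK and erythroid markers left of it, and cell cycle and mitochondrial genome lists have open symbols on opposite sides.

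Markers of T cells and of NK and cytotoxic cells were lower with PTX in direction, although the tumors of the arms overlapped. Those of B and plasma cells had 1 of 3 tested above 0 and a median of -0.07. Macrophage, dendritic cell, skeletal muscle and erythroid medians, given below, also lay below 0. The SD left in the mean log2 level of a list after PTX and NCTD was 1.24 for T cells and 1.06 for NK and cytotoxic cells. Of 8 NK and cytotoxic cell markers all 8 lay below 0, with a median of -0.66, against 6173 of 12424 over all genes, and 2 had an unadjusted p below 0.05 and were lower, against 1.40% of all genes, Ncr1 (-1.67 ± 0.70) and Klrb1c (-1.43 ± 0.53), both receptors of NK cells. Of 9 tested T cell markers all lay below 0, with a median of -0.66 and 0 at an unadjusted p below 0.05. The T cell median was -0.05 for PTX_IP against CONTROL_IP and -1.10 for MIX_IP against NCTD_IP, and that of the NK and cytotoxic markers -0.87 and -0.70. The summed level of the NK and cytotoxic markers was 183 and 25.02 CPM in PTX_IP, 114 and 89.6 CPM in MIX_IP, 82.7 and 274 CPM in CONTROL_IP and 105 and 196 CPM in NCTD_IP, and that of the T cell markers ranged from 13.3 to 108 CPM with PTX and from 31.9 to 134 CPM without it. None of the listed markers of either cell type was at 0 in all 8 tumors. Without PTX_IP replicate 4 the medians were -0.30 for NK and cytotoxic cells and -0.34 for T cells, without CONTROL_IP replicate 2 they were -0.23 and -0.47, and without NCTD_IP replicate 6 the T cell median was 0.12. In bulk tumors fewer cells of a type and less RNA per cell cannot be told apart.

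The tumors of PTX_IP marked the extremes of several immune lists. Summed macrophage and monocyte markers were at 1871 CPM in PTX_IP replicate 3 and 371 CPM in replicate 4, with the other 6 tumors between 872 and 1655 CPM, and genes of MHC class II presentation were at 5662 and 477 CPM, with the other 6 between 1215 and 4186 CPM. Macrophage markers lay below 0 in 12 of 14 cases with a median of -0.18, and Mrc1, the mannose receptor, had an unadjusted p below 0.05 at -0.81 ± 0.29. The macrophage median was 0.06 for PTX_IP against CONTROL_IP and -0.25 for MIX_IP against NCTD_IP, and it ranged from -0.65 without PTX_IP replicate 3 to 0.049 without PTX_IP replicate 4. The MHC class II median of -0.18 ranged from -1.14 to 0.17 without the same tumors. The part of these cell types in the differences of Sting1, Tnfrsf4 and Atp8b4 was not tested.

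Neutrophil markers were on the other side, with all 4 tested above 0, against 6251 of 12424 over all genes, and a median of 0.79. Their levels were low, at 14.4 to 24.7 CPM summed with PTX and 6.50 to 15.3 CPM without it. Whether these markers passed the filter on low counts only through the PTX-treated tumors was not checked. S100a9, a calcium-binding alarmin of myeloid cells, was the 1 of them with an unadjusted p below 0.05 (1.81 ± 0.78), and Cxcr2, Retnlg, Ly6g, Ngp, Camp and Lcn2 were too low to test. The 4 tested hemoglobin genes were below 0 with a median of -0.88, Hba-a1 (-0.74) with an unadjusted p below 0.05, and their summed level with the other erythroid markers ranged from 443 to 1388 CPM with PTX and from 247 to 2076 CPM without it. Keratinocyte markers reached 145 CPM in PTX_IP replicate 3 and 41.4 CPM in NCTD_IP replicate 6 and were at or below 13.6 CPM elsewhere. Endothelial markers (median 0.09), fibroblast markers (-0.12), dendritic cell markers (-0.41, 6 of 6 below 0), Schwann cell markers (-0.08), smooth muscle markers (-0.21), skeletal muscle markers (-0.64), adipocyte markers (0.02) and B and plasma cell markers (-0.07) held 0 genes at an unadjusted p below 0.05, of 6 platelet markers 1 was tested (-0.55) and of 6 mast cell markers 0.

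The main effect is the average of 2 differences that share no tumor, PTX_IP minus CONTROL_IP and MIX_IP minus NCTD_IP. With 12424 genes tested in edgeR, 0 reached an adjusted p below 0.05 in either, and 659 (5.30%) and 531 (4.27%) had an unadjusted p below 0.05, while DESeq2 called 2 genes in each. Across all genes, which are not independent replicates, the differences had the same sign in 45.4% and a Pearson correlation of -0.09 (Spearman -0.10), with all libraries scaled together. Of the 659 genes 224 had the same sign with NCTD (34.0%), and of the 531 genes 193 had the same sign without it (36.3%). The lists shared 48 genes, 7.28% of the first and 9.04% of the second, of which 11 had the same sign. The interaction of PTX and NCTD reached an adjusted p below 0.05 for 0 genes and an unadjusted p below 0.05 for 794 (6.39%) in edgeR, and DESeq2 called 7.

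Cdk9, Gm11518, Gm10288 and Gm10175 had been named earlier from PTX_IP against CONTROL_IP, and the MIX_IP and NCTD_IP tumors give values that this choice did not use. There Gm11518 was again lower, at -3.13 ± 0.53 (unadjusted p = 0.000205 in edgeR), and Cdk9 had 0.75 ± 0.46 (unadjusted p = 0.137). Gm10288, a pseudogene 99.8% identical to Rpl11, turned from 2.42 ± 0.58 without NCTD to -2.14 ± 0.58 with it. It was at 45.8 and 31.3 CPM in CONTROL_IP, 133 and 279 CPM in PTX_IP, 118 and 471 CPM in NCTD_IP and 67.9 and 65.4 CPM in MIX_IP, so that each drug alone had higher levels than the control and the combination. Gm10175, a pseudogene identical to the Atp5mc2 transcript over 649 bases, turned the opposite way, from -2.36 ± 0.55 to 1.92 ± 0.53. The interactions of Gm10288 and Gm10175 had unadjusted p of 0.00031 and 0.000302 and an adjusted p of 0.751 in edgeR. With DESeq2 the adjusted p were 0.0451 and 4.43e-06. How reads that fit such a pseudogene and its parent were counted is not given.

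**Figure D4:**
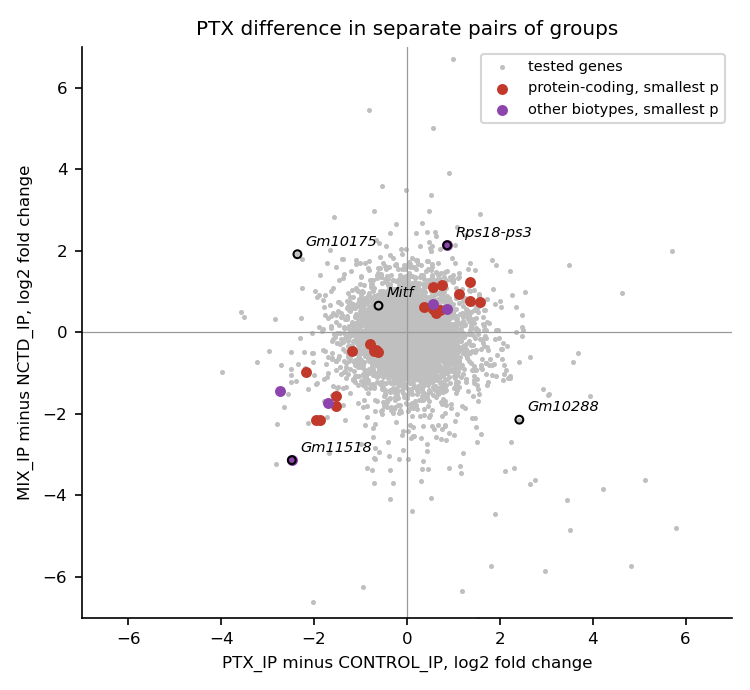
Log2 fold change of PTX for each of 12424 tested genes without NCTD (x axis) and with NCTD (y axis); 3 genes lie outside the axes. The named genes with the smallest p lie in the lower left and upper right quadrants because the rule picks genes with a common direction, and Mitf, Gm10175 and Gm10288 lie in the other quadrants.

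The IT tumors were 4 of CONTROL_IT, which received DMSO in place of saline, 3 of PTX_IT (PTX at 60 mg/kg), 4 of NCTD_IT (NCTD at 3 mg/kg) and 4 of MIX_IT (both), with the drugs dissolved in DMSO. Their comparison of 7 PTX-treated and 8 other tumors, with NCTD as covariate, called 0 of 12480 genes in edgeR and 1 in DESeq2, with 287 (2.30%) at an unadjusted p below 0.05. Mean Xist was 7.36 CPM in PTX_IT and 9.32 CPM in NCTD_IT, against 0.196 CPM in CONTROL_IT and 0 CPM in MIX_IT. Mean Ddx3y was 0.0929 and 0.0734 CPM in PTX_IT and NCTD_IT, against 5.01 CPM in CONTROL_IT and 10.1 CPM in MIX_IT. The part of these sex-linked differences in the IT comparison and the route difference was not tested. Of the 12059 genes tested by both routes 46.2% had the same sign, and of the 351 with an unadjusted p below 0.05 in the IP tumors 124 (35.3%) had it. A model of all 23 tumors tested the difference between the routes and called 1 of 13395 genes (0.00747%), Rps18-ps3, whose PTX effect was 3.68 lower on the log2 scale by the IT route than by the IP route (log2 difference -3.68, adjusted p = 0.0449 in edgeR). By the IT route it was at 17.3 to 40.9 CPM with PTX and 38.9 to 299 CPM without it, a log2 fold change of -2.24 ± 0.38 (adjusted p = 0.237), against the 1.49 of the IP tumors, and this gene was also the 1 that DESeq2 called by the IT route. The route difference of Rps18-ps3 passed the threshold in 4 of the 23 fits that left out 1 tumor, and in none of the 8 that left out an IP tumor. At an unadjusted p below 0.05 the route difference had 349 genes (2.61%), and the route cannot be told apart from the vehicle (saline or DMSO) or from the batch, which the labels give under the name of the route.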

How the data were processed

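RNA of 8 IP tumors was compared, with the 15 IT tumors for reference. The authors prepared Collibri 3′ mRNA libraries, checked them with FastQC, trimmed reads with Trimmomatic, aligned them to GRCm39 with STAR 2.7.11b and deposited its raw counts for 56748 genes. Strand setting, multi-mapped reads and molecular identifiers are not given in the sources used here, so overlapping genes and near-identical copies can share reads. Testing used R 4.3.3 and edgeR 4.0.16 (filterByExpr, minimum count 10 and total 15; TMM; quasi-likelihood test of PTX with NCTD as covariate, two-sided, Benjamini-Hochberg adjustment), limma 3.58.1 and DESeq2 1.42.0. CPM are TMM-scaled, with a prior count of 2 for distances. Standard errors are derived from the F statistic. Within-group pairs differed beyond sampling noise (chi-square per degree of freedom 9.88 to 32.6). The fit was tested on simulated data. Pseudogenes were aligned to GENCODE transcripts with BLAST+ 2.17.0. The floor covers counting error only.

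Genes named are the 10 protein-coding and 3 other genes of smallest p on each side, the 2 of smallest p in each pathway list, genes of measured proteins and genes named earlier; all other genes named were chosen after their values were seen. Members and lists were chosen with earlier results of these data known. Alternatives were other tests, scalings, filters, models and leaving out each tumor.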

Additional observations from a re-analysis of the deposited data

Results flagged for a closer look

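Within the 4 PTX-treated or the 4 other IP tumors, 1 tumor stood apart from the other 3 by Dixon's ratio (critical value 0.829) in 11 of 191 sets of 4 values checked, where chance gives about 1 in 20. PTX_IP replicate 4 stood apart for Sqstm1 (333 CPM, against 772 to 831), Kit (20.2 CPM, against 11.8 to 12.7) and Col6a1 (1.55 CPM, against 4.20 to 4.55). PTX_IP replicate 3 stood apart for Mtbp (13.2 CPM, against 23.6 to 24.7) and for the keratinocyte markers (145 CPM summed, against 1.11 to 3.13). MIX_IP replicate 7 did so for Mafg (116 CPM, against 107 to 108), and MIX_IP replicate 8 for Hsp90ab1 (3367 CPM, against 4162 to 4318) and for the erythroid markers (1388 CPM summed, against 443 to 513). Without PTX, CONTROL_IP replicate 2 stood apart for Hk2 (307 CPM, against 377 to 390) and for Xist (8.32 CPM, against 0 in each of the others), and NCTD_IP replicate 6 for Tfe3 (18.99 CPM, against 11.9 to 13.01).

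The PTX effect on Rps18-ps3 differed between the routes in a test of that difference (log2 difference -3.68, IT minus IP, adjusted p = 0.0449 in edgeR).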

How the results depend on the processing

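With 45 genes called, testing without the filter on low counts (23653 genes) gave the most calls for the main effect, and it gave 700 genes at an unadjusted p below 0.05. The same setting called 109 genes for the interaction, 71 for PTX without NCTD, 67 for PTX with NCTD (940 at an unadjusted p below 0.05), 58 for the IT route (1458) and 40 for the route difference (818). DESeq2 called 1 gene for the main effect, 7 for the interaction (500 at an unadjusted p below 0.05), 2 without NCTD (420), 2 with NCTD and 1 by the IT route. The model without the NCTD covariate called 1 gene. A model of all 23 tumors had 201 genes at an unadjusted p below 0.05 for the main effect, 443 for the interaction, 348 without NCTD and 265 with NCTD, and Xist as covariate left 244 for the main effect. The cause of these differences was not tested, except that the unfiltered table holds more genes.

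Leaving out 1 tumor gave 0 to 1 calls for the main effect, with 228 to 933 genes at an unadjusted p below 0.05. The ranges were 0 to 2 and 474 to 1332 for the interaction, 0 to 1 and 430 to 1708 without NCTD, 0 to 1 and 268 to 833 with NCTD, 0 to 1 and 244 to 384 by the IT route, and 0 to 1 and 255 to 635 for the route difference. The distance share of PTX ranged from 12.8% to 20.8%.

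Of 1511 gene values under all alternatives 1463 kept direction and side of the threshold, 12 newly passed it and 36 turned direction. Without the NCTD covariate Gm10175 was at 0.50, Gm10288 at -0.28 and Braf at 0.020. With Xist as covariate H2-DMb2 was at 0.15, Ddx3y at -0.13, Uty at -0.28, Gm10288 at -0.75 and Braf at 0.11. When 1 tumor was left out, the range was -0.27 to 0.17 for Braf, -0.089 to 0.80 for Ddx3y, -0.21 to 1.29 for Eif2s3y, -0.0025 to 0.55 for Erbb2, -1.03 to 0.61 for Gm10175, -0.84 to 1.07 for Gm10288, -1.20 to 0.27 for H2-DMb2, -0.17 to 0.29 for Mitf, -0.17 to 0.10 for Mtor, -0.071 to 0.0072 for Pik3ca and -0.43 to 1.12 for Uty. No alternative moved the median of all genes by over 0.1.

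No paired analysis was possible because the groups share no replicate numbers. With 2 tumors a group and a floor of 0.448 to 0.849 CPM, differences in genes of a few CPM were not well resolved.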
